A study of Mus musculus with 24 samples.

Results

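Collagen and elastin fibres are strengthened by a small set of enzymes, and 10 genes of that set were followed here across inguinal white adipose tissue, the fat pad under the skin of the groin. They are the lysyl oxidases Lox, Loxl1, Loxl2, Loxl3 and Loxl4, the lysyl hydroxylases Plod1 and Plod2, the catalytic prolyl 4-hydroxylase subunits P4ha1 and P4ha2, and the transglutaminase Tgm2. They were taken by symbol from 41388 genes with a deposited count, all 10 were found once, and all 10 passed the filter on low counts that left 19717 genes for testing. Male mice with floxed Nr3c2, the gene of the mineralocorticoid receptor, formed every group: controls with no Cre, and FMRKO mice with an Adipoq-Cre transgene, which deletes the floxed part in fat cells and leaves it in the other cells of the pad. Each genotype was studied on chow, with a high-fat diet and with corticosterone, which makes 6 groups of 4 libraries (24 in all). The mice's age, the make-up and length of the diet, and corticosterone's dose and vehicle were not given in the sources used here. Titles of chow libraries are the only ones that open with a number, so if that form marks a batch, it cannot be told apart from either treatment. The labels number the libraries without saying that they come from different animals, and the p-values then cover only the spread between these libraries.

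Fibrillar collagen is modified at several steps. Inside the cell, prolyl 4-hydroxylases hydroxylate proline, which stabilises the triple helix, and lysyl hydroxylases hydroxylate lysine, which decides the chemical type of the later crosslinks. Outside the cell, lysyl oxidases oxidise lysine and hydroxylysine side chains of collagen and elastin, and the products condense into covalent crosslinks. Tissue transglutaminase joins glutamine to lysine side chains of many matrix proteins. In fat, the crosslinked network surrounds each adipocyte, and fibroblasts and adipocyte precursors make most of its collagen.

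The prolyl 4-hydroxylase subunits and Plod1, known targets of hypoxia signalling, are among the hydroxylases described below. The sequence ahead of their transcription starts was at hand for these genes. It is shown because P4ha2 and Plod1 rose under corticosterone against chow and P4ha1 did not. None was at hand for Plod2, a lysyl hydroxylase that fell. RefSeq (GRCm38.p6) promoter windows were matched for 4 of the 10 genes (Plod1, P4ha1, P4ha2 and Loxl4). Windows of the other members, Lox among them, were not examined. This does not mean that they have no such window, and nothing is said of their letters. The 250 bases before the start are printed 5′ to 3′ on the gene's strand for 3 of them, with capitals marking the letters ACGTG or GCGTG, the core of the hypoxia response element, on either strand.
P4ha1 (chr10:59323046-59323295, plus strand): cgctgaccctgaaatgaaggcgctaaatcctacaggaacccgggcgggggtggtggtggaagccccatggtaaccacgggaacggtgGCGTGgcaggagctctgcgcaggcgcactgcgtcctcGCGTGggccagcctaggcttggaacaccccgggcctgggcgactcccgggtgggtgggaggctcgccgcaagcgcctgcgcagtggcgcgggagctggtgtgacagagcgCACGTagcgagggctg
P4ha2 (chr11:54100674-54100923, plus strand): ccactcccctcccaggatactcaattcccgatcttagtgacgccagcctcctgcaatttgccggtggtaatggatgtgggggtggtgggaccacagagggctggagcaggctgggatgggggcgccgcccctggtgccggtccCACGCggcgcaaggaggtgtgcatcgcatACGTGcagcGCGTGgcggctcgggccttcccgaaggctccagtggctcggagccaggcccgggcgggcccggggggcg
Plod1 (chr4:147936777-147937026, minus strand): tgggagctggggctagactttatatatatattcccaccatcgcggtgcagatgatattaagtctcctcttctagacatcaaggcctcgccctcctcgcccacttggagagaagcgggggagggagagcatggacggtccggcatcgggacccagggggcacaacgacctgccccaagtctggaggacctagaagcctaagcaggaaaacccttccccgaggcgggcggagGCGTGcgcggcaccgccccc
P4ha1 and P4ha2 each held 3 such matches, and Plod1 and Loxl4 held 1 each, with no match overlapping another. ACGTG was present in 16.6% of 32851 RefSeq promoter windows of the same length, GCGTG in 28.2%, and either in 38.6%. AGAACA, a half-site of the steroid receptor family to which the mineralocorticoid and glucocorticoid receptors belong, was in 16.1% of all windows and its letters were not in these 4. The P4ha2 window precedes a RefSeq start that lies inside the gene's annotated span, downstream of its first annotated base. A match of letters is a description of the window, not a binding site.

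Total counts ran from 17925109 to 40427675 per library. Nr3c2 averaged 23.5 ± 4.56 CPM (counts scaled to TMM-normalised library size; SD, n = 4) in chow controls and 19.2 ± 6.23 in chow FMRKO libraries, with overlap, 20.8 ± 2.95 and 14.5 ± 1.35 on the high-fat diet, and 16.7 ± 2.02 and 10.6 ± 2.01 under corticosterone, the last 2 pairs of groups without overlap. Its difference between genotypes did not pass the test in any condition (adjusted p = 0.59, 1.0 and 0.84), and the counts cover the whole gene. The fat-cell markers were present in every library at a summed 12000 to 32800 CPM. Lymph node lymphocyte markers stood apart in 6 libraries (1 and 3 of the chow FMRKO group, and 1 and 4 of each high-fat diet group), and skeletal muscle markers in 3 (5 of chow FMRKO, 3 of the high-fat diet controls, and 2 of the corticosterone controls). The member results were recomputed without these libraries.

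Compared per length, as RPKM (CPM scaled by gene length), Lox had the highest median level over the 24 libraries, 73.2 (range 22.5 to 195). Loxl1 followed at 44.4 (27.6 to 70.9), Tgm2 at 42.4 (24.2 to 51.9) and Plod1 at 23.6 (14.2 to 29.8), and the ranges of Loxl1 and Tgm2 overlapped almost wholly. P4ha1 had a median of 9.47 and Loxl2 of 7.66, again with overlapping ranges. P4ha2 (3.88), Loxl3 (2.66), Loxl4 (1.64) and Plod2 (1.58) were the lowest, with 98 to 1379 counts in each library. The order at the top depended on the group. In chow controls Loxl1 led with 61.2 ± 10.8 RPKM, ahead of Lox with 34.4 ± 10.3 and Tgm2 with 31.4 ± 2.78, the last pair closer than their spread. In corticosterone controls Lox led with 150 ± 33.5 RPKM, ahead of Tgm2 with 44.0 ± 3.92 and Loxl1 with 41.2 ± 9.36.

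**Figure D1:**
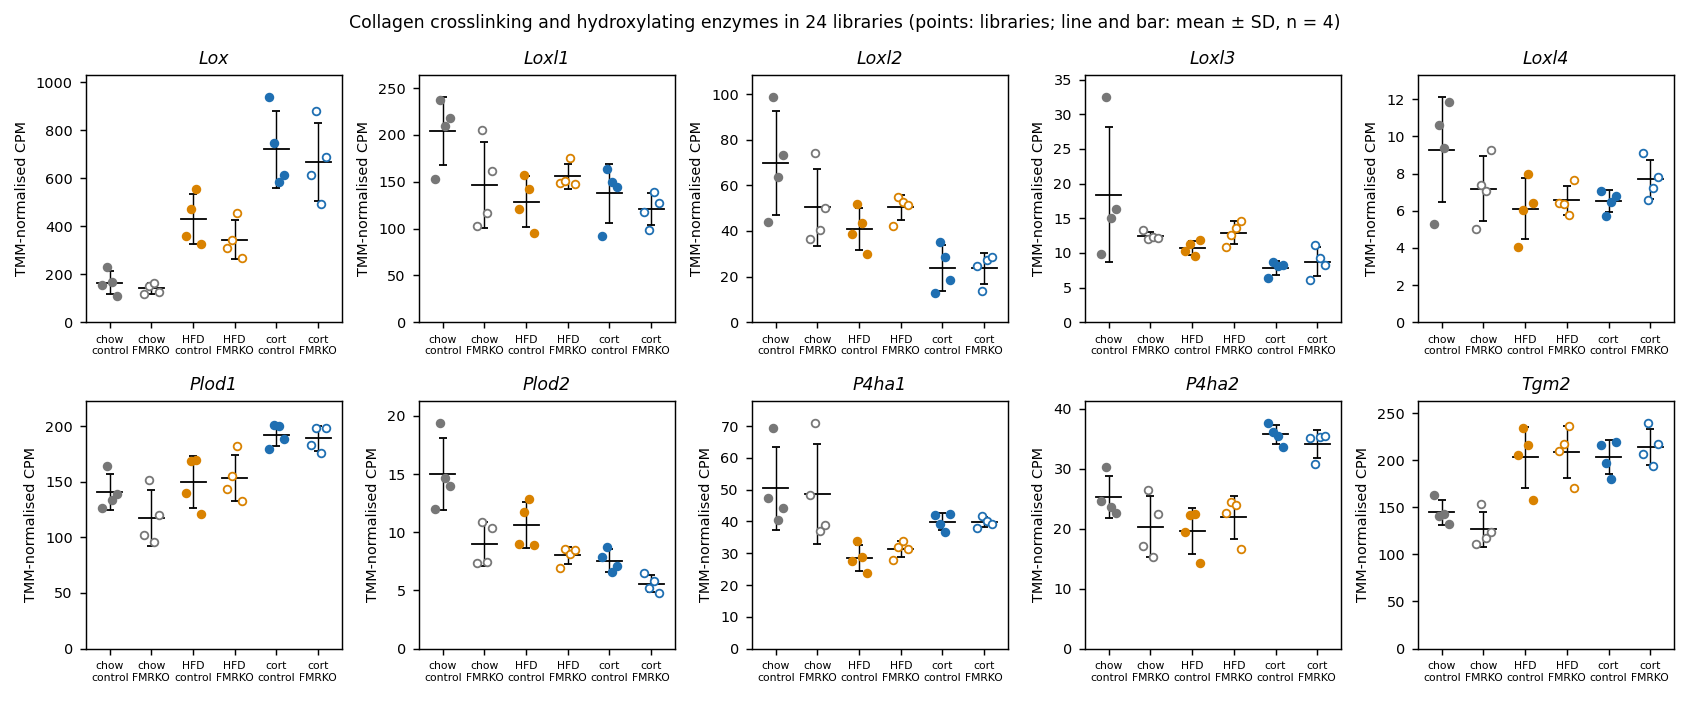
TMM-normalised CPM of each of the 10 genes (vertical axes from 0) in the 6 groups on the horizontal axis, with points for libraries (filled for controls, open for FMRKO) and lines and bars for mean ± SD (n = 4). Lox is lowest on chow, higher on the high-fat diet and highest under corticosterone in both genotypes, with every corticosterone library above every high-fat diet library of its genotype, while Loxl2 is lowest under corticosterone in both.

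Corticosterone against chow asks how the enzymes differ under a raised glucocorticoid. In controls 4 of the 10 rose (Lox, Plod1, P4ha2 and Tgm2) and 4 fell (Loxl1, Loxl2, Loxl3 and Plod2), beside 20.2% of all tested genes that rose and 22.7% that fell. In FMRKO mice the same 4 rose and 2 fell (Loxl2 and Plod2), beside 20.2% and 20.9% of all genes. The median log2 fold change of the 10 was -0.42 in controls, against -0.12 over all genes, and -0.09 in FMRKO mice, against -0.11. In both genotypes 7 of the 10 had groups without overlap, beside 41.9% of all genes in controls and 37.3% in FMRKO mice. These 2 comparisons use separate libraries, but the rise of Lox with a fall of fibrillar collagens under corticosterone was known when the genes were chosen and is given here as a description of its size.

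Lox, the main lysyl oxidase of collagen and elastin, is encoded on the minus strand of chromosome 18 (GRCm38, 52516069 to 52529867). It stood at 156, 229, 169 and 108 CPM in chow control libraries 1, 2, 4 and 5, and at 938, 746, 584 and 613 CPM in corticosterone control libraries 1 to 4. In FMRKO mice the values were 117, 153, 165 and 128 CPM on chow (libraries 1, 2, 3 and 5) and 614, 878, 490 and 690 CPM under corticosterone. The lowest corticosterone library of all, at 490 CPM, lay far above the highest chow library, at 229 CPM. The rise was 4.35-fold in controls (log2 2.12 ± 0.24 SE, adjusted p = 1.1e-06) and 4.75-fold in FMRKO mice (log2 2.25 ± 0.24, adjusted p = 8e-07). It passed the test under all 15 alternatives tried in each genotype, at 1.95 to 2.36 and 2.08 to 2.38. As this rise was known when the genes were chosen, these passes and p-values are not independent support for it.

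The other lysyl oxidases did not share this direction. Loxl2, an oxidase with scavenger receptor domains known for crosslinking type IV collagen of basement membranes (chromosome 14, 69609068 to 69695834, plus strand), was at 43.8, 98.7, 63.8 and 73.3 CPM in chow controls and at 12.9, 35.2, 28.7 and 18.4 CPM in corticosterone controls. Every corticosterone control library was below every chow one, a 2.94-fold fall (log2 -1.55 ± 0.30, adjusted p = 0.00036). In FMRKO mice it fell 2.13-fold, from 50.4 ± 16.9 to 23.6 ± 6.77 CPM (adjusted p = 0.0068), also without overlap. Loxl3 (chromosome 6, 83034173 to 83052562, plus strand), a relative of Loxl2 needed for the palate and spine, was at 9.89, 32.5, 15.0 and 16.3 CPM in chow controls and at 6.45, 8.69, 8.05 and 8.21 CPM in corticosterone controls. Chow control 2 alone held the high value, and without it the log2 fold change moved from -1.23 ± 0.24 (adjusted p = 0.00042) to -0.77, still past the threshold. In FMRKO mice Loxl3 was 12.4 ± 0.592 CPM on chow and 8.69 ± 2.09 under corticosterone, without overlap but short of the threshold (log2 -0.52 ± 0.24, adjusted p = 0.091). Loxl3 shares 535 of its 4196 exonic bases with Htra2 on the opposite strand, and since the use of strand in counting is not stated, reads there cannot be told apart.

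Loxl1, the oxidase most tied to elastic fibres (chromosome 9, 58287723 to 58313212, minus strand), was at 153, 237, 209 and 218 CPM in chow controls and at 92.3, 164, 149 and 145 CPM in corticosterone controls. Corticosterone control 2 and 1 chow library overlapped, and the 1.48-fold fall (log2 -0.57 ± 0.20, adjusted p = 0.03) lost its call under 6 of 15 alternatives. Those 6 were the fit with replicate numbers as blocks and the fits without chow control 2, 4 or 5 or corticosterone control 1 or 4. In FMRKO mice Loxl1 went from 147 ± 46.3 to 121 ± 17.3 CPM (adjusted p = 0.28), or by a log2 of -0.55 when chow FMRKO 1 and 3, with lymph node transcripts, were left out with the other such libraries (adjusted p = 0.045). Loxl4 (chromosome 19, 42593982 to 42612813, minus strand), the least abundant oxidase, was at 9.28 ± 2.84 and 6.52 ± 0.58 CPM in the control groups and at 7.18 ± 1.75 and 7.68 ± 1.07 CPM in the FMRKO groups, and did not pass the test in either (adjusted p = 0.07 and 0.74). Without chow control 1 its difference in controls was -0.70 on the log2 scale (adjusted p = 0.008).

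Lox thus took up a larger part of the family's transcripts. Its share of the summed RPKM of the 5 oxidases was 29.9% ± 6.54 (SD, n = 4) in chow controls and 74.7% ± 7.24 in corticosterone controls, and 34.2% ± 6.34 and 75.0% ± 6.81 in FMRKO mice. Loxl1 moved from 53.5% ± 5.29 to 21.2% ± 6.19 in controls, and Loxl2 from 11.1% ± 1.73 to 2.26% ± 0.969. The sum itself was 115 ± 23.8 RPKM in chow controls and 199 ± 26.5 in corticosterone controls, so the smaller shares of Loxl1 and Loxl2 combine a larger whole with lower levels.

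**Figure D2:**
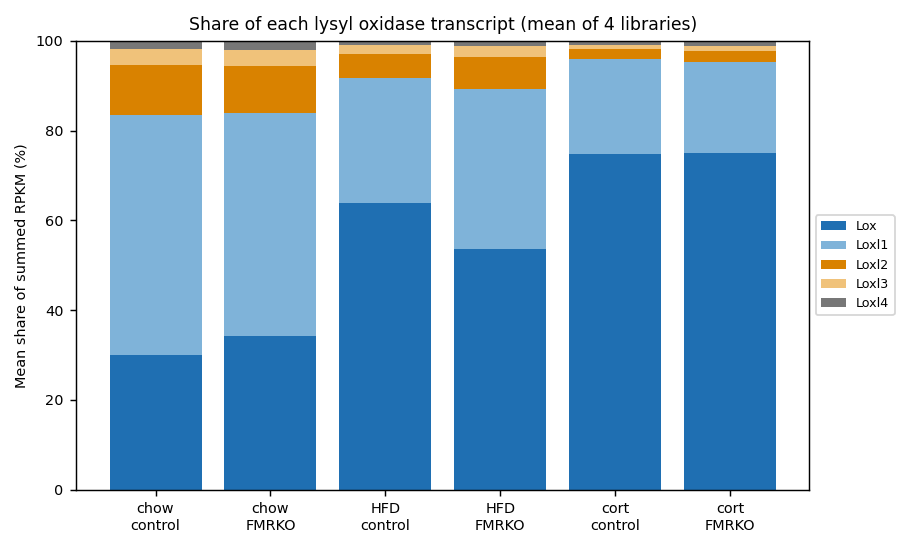
Mean share (vertical axis, percent) of each lysyl oxidase in the summed RPKM of the 5 genes, stacked for the 6 groups on the horizontal axis (4 libraries each). The Lox segment grows from 29.9% in chow controls to 63.8% on the high-fat diet and 74.7% under corticosterone, and the Loxl1 segment shrinks.

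Among the lysyl hydroxylases, Plod1 and Plod2 moved in opposite directions under corticosterone. Plod1, which hydroxylates lysines of the collagen helix (chromosome 4, 147909753 to 147936767, minus strand), was at 127, 164, 133 and 139 CPM in chow controls and at 179, 201, 200 and 189 CPM in corticosterone controls. Every treated library was above every chow library, for a 1.37-fold rise in controls (log2 0.45 ± 0.13, adjusted p = 0.0096). In FMRKO mice the rise was 1.61-fold, from 117 ± 25.0 to 189 ± 11.3 CPM (adjusted p = 0.00041), but the log2 value fell from 0.69 to 0.36 (adjusted p = 0.12) without the lymph node and muscle libraries, which leaves only chow FMRKO 2 as its baseline.

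Plod2, which hydroxylates lysines of the collagen telopeptides and so favours the hydroxylysine-derived crosslinks seen in fibrosis, lies on the plus strand of chromosome 9 (92542223 to 92608428). It was at 12.01, 19.4, 14.7 and 14.0 CPM in chow controls and at 7.89, 8.77, 6.56 and 7.06 CPM in corticosterone controls, again without overlap. Its fall was 1.98-fold in controls (log2 -0.99 ± 0.17, adjusted p = 0.00011) and 1.61-fold in FMRKO mice (log2 -0.69 ± 0.17, adjusted p = 0.0032), and both calls held under all 15 alternatives tried in each genotype. Plod3, the third lysyl hydroxylase, which also glycosylates hydroxylysine, rose with Plod1, with log2 fold changes of 0.96 ± 0.14 in controls (adjusted p = 2e-05) and 1.16 ± 0.14 in FMRKO mice (adjusted p = 3.4e-06).

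P4ha1 and P4ha2 are alternative catalytic subunits that pair with the disulfide isomerase P4hb. P4ha2 (chromosome 11, 54100095 to 54131665, plus strand) was at 24.6, 30.4, 23.6 and 22.6 CPM in chow controls and at 37.6, 36.2, 35.5 and 33.7 CPM in corticosterone controls. Chow control 2 was the highest chow library and still lay below all 4 treated ones. The rise was 1.41-fold in controls (log2 0.50 ± 0.16, adjusted p = 0.017, or 0.083 with replicate numbers as blocks) and 1.68-fold in FMRKO mice (log2 0.75 ± 0.16, adjusted p = 0.0011, or 0.41 and 0.099 without the lymph node and muscle libraries). P4ha1, the main subunit of most cells (chromosome 10, 59323296 to 59373304, plus strand), was at 50.4 ± 13 and 40.0 ± 2.68 CPM in the control groups and at 48.7 ± 15.6 and 39.8 ± 1.64 CPM in the FMRKO groups, which overlapped (adjusted p = 0.12 and 0.18). Without the lymph node and muscle libraries, with chow FMRKO 2 as the only FMRKO baseline, its FMRKO log2 value went from -0.29 to -0.79 (adjusted p = 0.025). P4hb rose 1.37-fold in controls (adjusted p = 0.0048) and 1.51-fold in FMRKO mice (adjusted p = 0.00068). The windows of P4ha1 and P4ha2 printed earlier hold 3 hypoxia cores each, and a link between these letters and the levels of the 2 genes was not tested.

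Tgm2, the tissue transglutaminase (chromosome 2, 158116402 to 158146436, minus strand), was at 162, 140, 143 and 132 CPM in chow controls and at 216, 197, 180 and 219 CPM in corticosterone controls. In FMRKO libraries it was at 112, 154, 118 and 124 CPM on chow and at 206, 239, 194 and 217 CPM under corticosterone. The groups did not overlap in either genotype, and the rise was 1.4-fold in controls (adjusted p = 0.0032) and 1.69-fold in FMRKO mice (adjusted p = 8.3e-05), called under all 15 alternatives in each. Tgm2 shares 370 of 4608 exonic bases with Rprd1b on the opposite strand.

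Most fibrillar collagens, which these enzymes act on, fell in controls, a fall that was known when the genes were chosen. There 7 of the 10 tested fell and none rose, with a median log2 fold change of -1.47 against -0.12 over all genes, led by Col24a1 (-3.39 ± 0.96), Col27a1 (-2.28 ± 0.23) and Col1a2 (-2.0 ± 0.34). Col1a1 fell from 4310 ± 2710 to 1130 ± 510 CPM (adjusted p = 0.00068) and Col3a1 from 5540 ± 1940 to 1680 ± 877 CPM (adjusted p = 0.00058). Col5a3, a minor chain, did not follow, at 0.47 ± 0.19 in controls (adjusted p = 0.051) and 0.71 ± 0.19 in FMRKO mice (adjusted p = 0.0056). In FMRKO mice 4 of the 10 collagens fell and 1 rose, with a median of -0.87 against -0.11 over all genes, and Col1a1 was not called (-0.73 ± 0.39, adjusted p = 0.14). Chow control 2 and 5 were the highest libraries for Col1a1, at 7725 and 5095 CPM against 1539 and 2882 in chow control 1 and 4.

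Set against the summed CPM of Col1a1, Col1a2 and Col3a1, Lox stood at 26.3, 11.7, 16.8 and 7.08 CPM per 1000 CPM of collagen in chow controls 1, 2, 4 and 5. In corticosterone controls 1 to 4 the same ratio was 472, 147, 121 and 277, and in corticosterone FMRKO libraries 163, 420, 108 and 153, against 21.0, 15.7, 28.5 and 17.3 in chow FMRKO libraries. All 8 treated values exceeded all 8 chow values, and the spread within the corticosterone groups (SD 160 and 141) was itself wide. The ratio is built from values that chose the genes and carries no test.

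**Figure D3:**
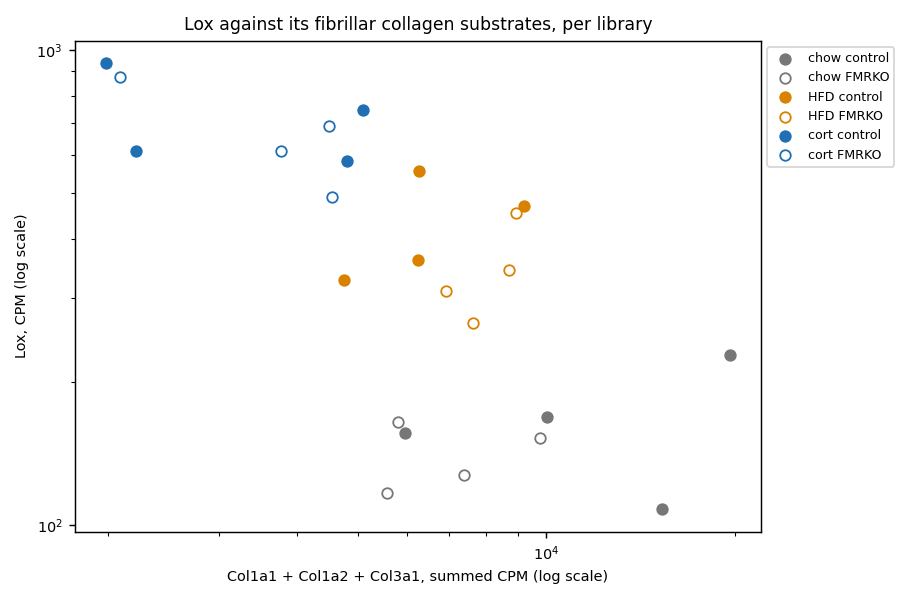
CPM of Lox (vertical log axis) against the summed CPM of Col1a1, Col1a2 and Col3a1 (horizontal log axis), 1 point for each of 24 libraries, filled for controls and open for FMRKO. The 8 corticosterone libraries sit at upper left with 1985 to 5088 CPM of collagen, and the 8 chow libraries at the bottom with 5562 to 19600.

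The other genes of collagen assembly were divided between rises and falls. Of 16 other enzymes and chaperones of collagen synthesis, 6 rose and 6 fell in controls (median 0.13), and 8 rose and 4 fell in FMRKO mice (median 0.29). Tmem38b, an endoplasmic reticulum cation channel whose loss causes a brittle bone disease, rose 4.71-fold in controls, from 12.4 to 58.2 CPM on average (adjusted p = 1.1e-08). P3h3, a collagen prolyl 3-hydroxylase family member, fell by 1.53 ± 0.19 on the log2 scale, while Serpinh1, the collagen chaperone HSP47, was at 0.24 ± 0.21 (adjusted p = 0.39). P4ha3, the third catalytic subunit, was at 0.0643, 8.47, 1.38 and 1.76 CPM in chow controls and at 0.0358 to 0.394 CPM in corticosterone controls, so its called difference (-3.79 ± 0.94, adjusted p = 0.0029) rests on few reads and on libraries 2, 4 and 5. Of 7 tested procollagen processing genes 5 fell in controls, among them Bmp1, the C-proteinase that also activates Lox (-1.09 ± 0.23, adjusted p = 0.00066), its relative Tll1 (-1.96 ± 0.29) and Adamts14 (-1.34 ± 0.25). In FMRKO mice 4 of the 7 fell, Bmp1 among them (-0.71 ± 0.23, adjusted p = 0.016), and 1 rose.

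Elastic fibre genes, whose products are the other substrate of Lox and Loxl1, gave 2 higher and 8 lower of 16 in controls and 4 higher and 2 lower in FMRKO mice. Eln, elastin itself, fell from 99.4 ± 11.7 to 65.8 ± 17.6 CPM in controls (adjusted p = 0.023) and was at 69.2 ± 11.4 and 83.5 ± 18.9 CPM in FMRKO mice (adjusted p = 0.29). Fbn1, fibrillin-1, did not pass in either (-0.43 ± 0.29 and 0.30 ± 0.29). Fbln5, a fibulin that brings Loxl1 to elastin, rose 2.11-fold in controls and 2.55-fold in FMRKO mice (adjusted p = 0.00034 and 5e-05).

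Response genes of 3 pathways were counted beside the enzymes. Of 11 glucocorticoid-responsive genes 6 rose and 1 fell in controls, with Pdk4 (1.95 ± 0.37), Tsc22d3 (1.90 ± 0.25) and Mt2 (1.69 ± 0.43) the largest changes, and Fkbp5 rose from 117 ± 60.6 to 274 ± 95.5 CPM (adjusted p = 0.0038). In FMRKO mice 6 rose and none fell. Of 15 hypoxia-responsive genes 4 rose and 2 fell in controls, with Hk2 (1.02 ± 0.23) and Ldha (1.00 ± 0.16) up and Car9 (-1.31 ± 0.41) and Vegfa (-0.79 ± 0.20) down. In FMRKO mice 4 rose and none fell, and Vegfa was not called (-0.23 ± 0.20, adjusted p = 0.37). Of 12 genes of the TGF-beta pathway and its response 1 rose and 4 fell in controls, led by the ligand Tgfb2 (-2.53 ± 0.41) and the matrix genes Cthrc1 (-2.21 ± 0.85) and Postn (-2.05 ± 0.36), whereas the ligand Tgfb3 was the riser (1.35 ± 0.14). In FMRKO mice 2 of the 12 rose (Tgfb3 and Ccn2) and 1 fell (Tgfb2), and Postn was not called (-0.78 ± 0.35, adjusted p = 0.081). These values stand beside the enzymes with no test of a link.

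Cell type markers also moved with corticosterone. In controls 9 of 12 stromal fibroblast markers fell and 1 rose. Their mean log2 CPM was 6.41 to 7.02 under corticosterone against 6.98 to 7.81 on chow. Their summed level, which the most abundant markers weigh on most, was higher (13600 to 17000 CPM against 9660 to 13500 on chow). Of the endothelial markers 10 of 11 fell (617 to 719 CPM against 1070 to 1290), and of the mural cell markers 7 of 10 fell and 1 rose. Of 12 adipocyte markers 5 rose and 1 fell, with a summed 28500 to 32800 CPM against 12300 to 23900 on chow. Of 13 macrophage markers 2 fell and none rose in controls. Their summed level was uneven on chow, at 678 to 2910 CPM with library 2 the highest, against 1400 to 2300 CPM under corticosterone. In FMRKO mice 9 of 13 macrophage markers and 6 of 12 adipocyte markers rose, and 1 adipocyte marker fell. In the same mice 8 stromal, 6 endothelial and 5 mural markers fell, with 1 rising in each of these 3 lists. There 9 of 17 lymph node markers and 13 of 14 tested muscle markers also fell, with summed levels of 6.57 to 83.0 CPM against 18.5 to 1170 on chow and 63.5 to 128 against 44.9 to 16200. No marker of these lists was at 0 in all libraries. In a bulk sample fewer cells of a type and less RNA per cell cannot be told apart, and the part of these markers in the changes of the enzymes was not tested.

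On the high-fat diet Lox and Tgm2 rose in both genotypes and P4ha1 fell in both. In controls 2 of the 10 genes rose (Lox and Tgm2) and 5 fell (Loxl1, Loxl3, Loxl4, Plod2 and P4ha1), beside 15.3% and 13.9% of all genes. In FMRKO mice 3 rose (Lox, Plod1 and Tgm2) and P4ha1 fell, beside 15.2% and 9.18% of all genes. The median log2 fold change of the 10 was -0.55 in controls and 0.07 in FMRKO mice, against 0.01 and -0.06 over all genes. Groups did not overlap for 3 genes in each genotype, beside 23.2% of all genes in controls and 22.4% in FMRKO mice. The chow libraries are the same as in the comparison with corticosterone. Lymph node markers rose for 15 of 17 in controls (summed 34.2 to 1150 CPM against 20.3 to 25.8 on chow), 12 of 14 tested muscle markers fell in FMRKO mice, and 3 and 5 of 11 endothelial markers rose in the 2 genotypes. Their part in the values of the enzymes was not tested beyond leaving out the libraries concerned.

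Lox reached 361, 470, 556 and 327 CPM in high-fat diet controls 1 to 4 and 310, 344, 454 and 267 CPM in the FMRKO group, all above every chow library. This was a 2.59-fold rise in controls (log2 1.37 ± 0.23, adjusted p = 0.00019) and a 2.45-fold rise in FMRKO mice (log2 1.29 ± 0.23, adjusted p = 0.00039). Without the lymph node and muscle libraries, which leaves chow FMRKO 2 and high-fat diet FMRKO 2 and 3, the FMRKO value missed the threshold at about the same size (log2 1.4 against 1.29, adjusted p = 0.071). Tgm2 had 205, 234, 216 and 158 CPM in the 4 control libraries, and 209, 218, 236 and 171 CPM in the FMRKO libraries, 1.41-fold and 1.65-fold above chow (adjusted p = 0.005 and 0.00025). Only high-fat diet control 4 came below a chow control, and Tgm2 kept its call in controls under all 15 alternatives and in FMRKO mice under 14, the exception being without the lymph node and muscle libraries (log2 0.58 against 0.72, adjusted p = 0.053).

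P4ha1 was the member that fell on the diet in both genotypes. It was at 47.3, 69.4, 40.6 and 44.2 CPM in chow controls and 27.7, 33.96, 28.7 and 23.7 CPM in high-fat diet controls, and the FMRKO values were 48.2, 70.9, 36.9 and 38.8 CPM on chow and 27.9, 31.9, 33.8 and 31.4 CPM on the diet. The groups were apart in both genotypes, with falls of 1.77-fold (log2 -0.82 ± 0.17, adjusted p = 0.0013) and 1.56-fold (log2 -0.64 ± 0.17, adjusted p = 0.0096). Chow FMRKO 2 was the highest library, and without it the FMRKO value was -0.40 (adjusted p = 0.056), while with this library as the sole chow baseline, without the lymph node and muscle libraries, it was -1.09. The control value missed the threshold without the lymph node and muscle libraries (adjusted p = 0.12). Vegfa, a hypoxia-responsive angiogenic factor, fell 2.28-fold and 2.03-fold in the same comparisons, and of the 15 hypoxia-responsive genes 3 rose and 2 fell in controls and 1 rose and 1 fell in FMRKO mice.

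The remaining falls in controls depended on single libraries or settings. Loxl1 (log2 -0.67 ± 0.21, adjusted p = 0.019) was at -0.41 without the lymph node libraries high-fat diet control 1 and 4 (adjusted p = 0.15). Loxl3 (-0.78 ± 0.24, adjusted p = 0.02) was at -0.36 without chow control 2 (adjusted p = 0.14). Loxl4 (-0.60 ± 0.22, adjusted p = 0.048) lost its call under 11 of 15 alternatives and Plod2 (-0.50 ± 0.17, adjusted p = 0.031) under 7, with values of -0.36 and -0.26 without the lymph node libraries. Single libraries whose removal ended the call were chow controls 2, 4 and 5 and high-fat diet controls 1, 2 and 4 for Loxl4 (adjusted p = 0.052 to 0.14), and chow controls 2 and 4 and high-fat diet controls 1 and 4 for Plod2 (0.053 to 0.1). The count of called genes in controls was 3 without the lymph node libraries, 2 without those and the muscle libraries, 4 without chow control 2, and 3 with replicate numbers as blocks. Loxl2 was at 40.9 ± 9.25 CPM in high-fat diet controls and 50.3 ± 5.55 in the FMRKO group, and did not pass the test (adjusted p = 0.055 and 1.0). The control difference of -0.77 was called with DESeq2 (adjusted p = 0.033) and without chow control 1 or high-fat diet control 2 (0.024 and 0.042). P4ha2 was at 19.6 ± 3.87 and 21.9 ± 3.60 CPM and also did not pass (adjusted p = 0.091 and 0.67). Plod1 in FMRKO mice (log2 0.39 ± 0.13, adjusted p = 0.037) lost its call under 10 of 15 alternatives, among them leaving out any 1 of the chow FMRKO libraries 1, 3 and 5 or the high-fat diet FMRKO libraries 1 to 3. In FMRKO mice 1 gene was called without the lymph node and muscle libraries.

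Substrates and partners of the enzymes gave fewer calls on the diet than under corticosterone, as did all tested genes. In controls 15.3% of all genes rose on the diet and 13.9% fell, against 20.2% and 22.7% under corticosterone. In FMRKO mice the shares were 15.2% and 9.18%, against 20.2% and 20.9%. The rises of other collagen synthesis genes in FMRKO mice were an exception, at 9 of 16 on the diet and 8 under corticosterone. Of the fibrillar collagens 5 of 10 fell in controls (Col1a1 by 2.29-fold, adjusted p = 0.028) and 1 of 10 in FMRKO mice, Col27a1 (-1.07 ± 0.22). Other collagen synthesis genes gave 2 higher and 3 lower of 16 in controls and 9 higher in FMRKO mice, with Plod3 called in both (0.61 ± 0.14 and 0.86 ± 0.14) and Serpinh1 in FMRKO mice (0.89 ± 0.21, adjusted p = 0.0042). Stromal fibroblast markers gave 1 higher and 3 lower of 12 in controls and 1 of each in FMRKO mice. The ratio of Lox to the 3 summed collagens averaged 66.6 ± 16.5 and 42.5 ± 6.83 CPM per 1000 CPM, against 15.5 ± 8.24 and 20.6 ± 5.70 on chow.

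**Figure D4:**
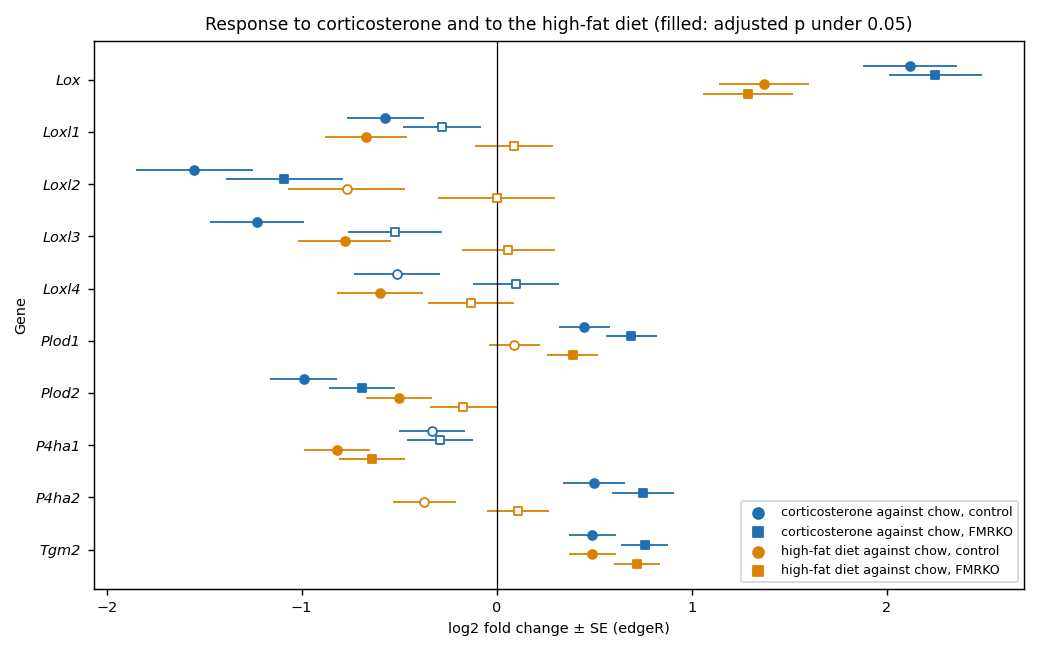
The log2 fold change ± SE (horizontal axis) of each of the 10 genes (vertical axis) for corticosterone and the high-fat diet against chow in each genotype, filled where the adjusted p is under 0.05. Lox is at the far right in all 4 comparisons (1.29 to 2.25), Tgm2 is called higher in all 4, and Loxl2 reaches furthest left at -1.55 under corticosterone in controls.

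Corticosterone was also set against the high-fat diet, which involves no chow library. Here 17 of 17 lymph node markers and 10 of 11 endothelial markers were lower in controls, as were 9 of 11 endothelial markers in FMRKO mice. In both genotypes 6 of 12 stromal fibroblast markers were lower and 1 higher. In controls their mean log2 CPM was 6.41 to 7.02 against 6.99 to 7.46, although their summed level was higher (13600 to 17000 CPM against 5860 to 10600). In both genotypes 5 of 10 mural markers were lower, and 2 adipocyte markers in controls and 3 in FMRKO mice were higher. The part of these markers was not tested. In controls Lox, P4ha1 and P4ha2 were higher under corticosterone and Plod2 was lower, beside 10.6% of all genes higher and 14.2% lower. In FMRKO mice Lox and P4ha2 were higher and Loxl2 and Plod2 lower, beside 7.27% and 8.49%. P4ha2 gave the firmest values, 1.82-fold in controls (log2 0.87 ± 0.16, adjusted p = 0.00067) and 1.56-fold in FMRKO mice (log2 0.64 ± 0.16, adjusted p = 0.0092), without overlap and called under all 15 alternatives in each. Lox was 1.68-fold and 1.94-fold higher (adjusted p = 0.022 and 0.0067). Without the lymph node libraries its log2 value went from 0.75 to 0.51 in controls (adjusted p = 0.24) and from 0.96 to 0.77 in FMRKO mice (adjusted p = 0.088), and in controls the call was also lost without high-fat diet control 4 or corticosterone control 1 (adjusted p = 0.052 and 0.057). Loxl2 was 2.13-fold lower in FMRKO mice (log2 -1.09 ± 0.30, adjusted p = 0.016, or 0.065 without corticosterone FMRKO 2) and at -0.78 ± 0.30 in controls (adjusted p = 0.061). The control value was called with DESeq2 (-0.77, adjusted p = 0.035), with the replicate block (-0.87, 0.032) and without corticosterone control 2 (-0.98, 0.029). Plod1 had groups without overlap in controls and just missed the threshold (log2 0.36 ± 0.13, adjusted p = 0.051), but was called higher under 10 of 15 alternatives, DESeq2 among them (adjusted p = 0.021). In FMRKO mice it was at 0.30 ± 0.13 (adjusted p = 0.13, or 0.038 without high-fat diet FMRKO 3). The Plod2 differences (-0.49 ± 0.17 and -0.52 ± 0.17, adjusted p = 0.039 and 0.042) lost their calls under 10 and 11 of 15 alternatives, and the P4ha1 difference in controls (0.49 ± 0.17, adjusted p = 0.044) under 7. For P4ha1 these included leaving out library 1 or 4 of either control group. For Plod2 they included leaving out library 2, 3 or 4 of the high-fat diet controls or 1, 3 or 4 of the corticosterone controls, and library 2, 3 or 4 of either FMRKO group. Without the lymph node libraries 2 genes were called in each genotype, and in controls 1 was called without high-fat diet control 4 and 2 without corticosterone control 1. In FMRKO mice 2 were called without corticosterone FMRKO 2. Tgm2 did not separate the treatments (log2 -0.00 ± 0.12 and 0.04 ± 0.12).

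FMRKO against control compares floxed mice with Adipoq-Cre and floxed mice with no Cre. An effect of receptor loss in fat cells cannot be told apart here from an effect of the transgene itself. None of the 10 was called by edgeR with chow, high-fat diet or corticosterone, where 0.0101%, 0.0101% and 0.00507% of all genes were called, or averaged over the conditions, where 0.0355% were. At an unadjusted p under 0.05 there were 3 genes on chow (Loxl1, Loxl3 and Plod2) and 1 in each of the other comparisons, Plod2. The share of all genes at that unadjusted cut is not given here, so these counts have no background to be read against. DESeq2 called Plod2 on chow and in the average, where it called 0.451% and 0.178% of all genes, and no other member. Lox was at -0.23 ± 0.23, -0.32 ± 0.23 and -0.11 ± 0.23 on the log2 scale in the 3 conditions. On chow all 10 log2 values were below 0 (median -0.34, against -0.02 over all genes). The fibrillar collagens and elastic fibre genes had medians of -0.54 and -0.46 there, and the other transglutaminases 0.35. Signs of the members in the genotype comparisons and their differences were unstable, with 34 of 60 changing under at least 1 alternative.

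Plod2 was the member whose genotypes did not overlap in any condition. Its values were 12.01, 19.4, 14.7 and 14.0 CPM in chow controls and 7.34, 10.9, 7.40 and 10.4 CPM in chow FMRKO libraries. On the high-fat diet controls had 9.01, 11.7, 12.9 and 8.94 CPM and FMRKO libraries 6.89, 8.56, 8.12 and 8.44 CPM. Under corticosterone the same groups had 7.89, 8.77, 6.56 and 7.06 CPM, and 6.48, 5.21, 5.85 and 4.79 CPM. Every FMRKO library was below every control of its condition, by gaps as small as 6.48 against 6.56 CPM. Groups without overlap within a condition were found for 3.2% of genes for chow, 2.37% for the high-fat diet and 4.92% for corticosterone, and Plod2 was 1 of 4 genes (0.0203%) without overlap in all 3 in 1 direction. The other three were Gm11868, Zfp949 and Eif4a2, which were higher in FMRKO libraries.

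The log2 fold change of Plod2 stood at -0.74 ± 0.17 for chow, -0.41 ± 0.17 for the high-fat diet and -0.44 ± 0.17 for corticosterone (adjusted p = 0.29, 1.0 and 1.0), and -0.53 ± 0.10 in the average, a 1.44-fold lower level in FMRKO mice (adjusted p = 0.059). With DESeq2 the adjusted p was 0.03 on chow and 0.00033 in the average. Over the 31 alternatives the averaged value stayed between -0.57 and -0.44, with adjusted p from 0.00033 to 1.0, and it passed in edgeR only without chow control 1, chow FMRKO 2, high-fat diet control 1 or 4, or corticosterone FMRKO 1 (0.035 to 0.047). Without the lymph node libraries the chow value was -0.49 (adjusted p = 0.63). Plod2 lies on chromosome 9, as do 4 of the 7 genes called in the averaged comparison (Gsta4, Zfp949, Srprb and Ppm1m) and 1 of the other 3 genes without overlap, Zfp949 at 88548020 to 88571061. These genes were singled out after their values were seen, and the share of all tested genes on chromosome 9 was not counted. The strain background of the 2 genotypes was not given in the sources used here. Loxl1, a member on the same chromosome, was at -0.13 ± 0.12 in the average (edgeR adjusted p = 0.89).

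**Figure D5:**
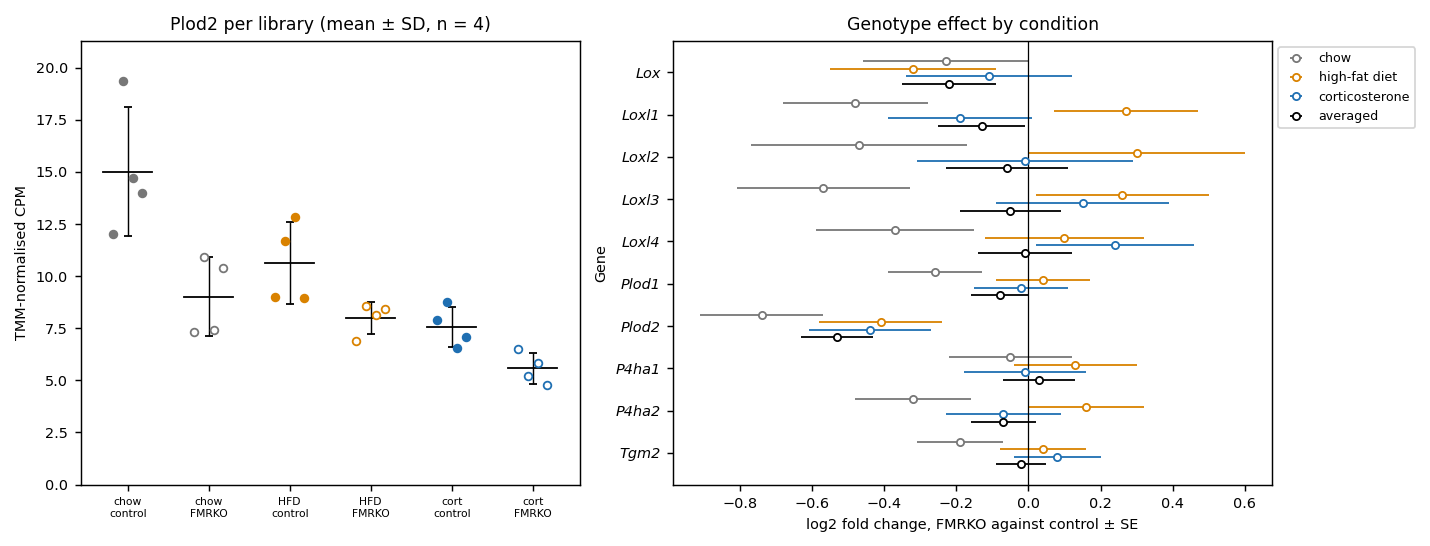
Left, TMM-normalised CPM of Plod2 per library (vertical axis from 0) in the 6 groups, with mean ± SD (n = 4). Right, log2 fold change of FMRKO against control ± SE (horizontal axis) for the 10 genes in each condition and averaged, where Plod2 is the lowest in the average at -0.53 and no value passed the test in edgeR.

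Whether FMRKO changed the response to a treatment was tested directly, as an interaction of genotype with corticosterone or the diet. None of the 10 genes was called by edgeR or DESeq2 in either test, where edgeR called 0.0% of all genes. At an unadjusted p under 0.05 there was 1 for corticosterone (Loxl3) and 3 for the high-fat diet (Loxl1, Loxl3 and P4ha2). These unadjusted counts are likewise given without the share of all genes at that cut. The lowest adjusted p was 0.83 for corticosterone and 0.48 for the diet. The calls made in controls alone, such as the falls of Loxl1 and Loxl3, are therefore not shown to differ from the FMRKO values. Loxl3 differed by 0.71 ± 0.34 for corticosterone and 0.83 ± 0.34 for the diet, and Lox by 0.13 ± 0.32 and -0.08 ± 0.32.

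To describe which genes share a member's pattern, group means of log2 CPM over the 6 groups were centred per gene and compared by their root mean square difference. G6pdx (0.09), Cdsn (0.106), Cdkn2b (0.132), Adra1a (0.137) and Hspb2 (0.138) were nearest to Lox, whose own root mean square deviation was 0.907. The nearest member to Lox was Tgm2, at 0.649. The measure counts the size of a change as well as its shape, and the deviation of Tgm2 itself was only 0.296. It therefore cannot tell whether a member followed Lox with smaller changes, and likeness of shape apart from size was not tested. Loxl2 was nearest to Pcdhb19, Gm11447, Mmp2, Tbx2 and Ssc5d (0.065 to 0.078) and, among members, to Loxl3 (0.239). P4ha2 was nearest to Fth1 (0.025), and its closest member was Plod1 (0.194). Plod1 and Tgm2 were each other's nearest member, at 0.164. Plod2 was nearest to Tbx18 (0.096), Ttll9, Cep112it, Gal3st1 and Wnt6, and its closest member was Loxl3 (0.263). With 6 points per gene and 19717 genes searched, close matches are a description only.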

How the data were processed

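RNA of inguinal fat was sequenced by the authors as total RNA after ribosomal depletion, per the labels' protocols. The values used are deposited counts of reads per gene, made with STAR 2.5.1a and featureCounts 1.4.6p-5 on GRCm38, per the submitters' processing notes. Annotation release, strand use and handling of multiply mapped reads were not given in the sources used here. The deposited CPM and RPKM columns of the authors were recomputed from the counts and matched. Symbols came from GENCODE M21 (97.3% of 41388 genes).

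The tests used edgeR 4.0.16 (R 4.3.3): filterByExpr with a minimum count of 10 left 19717 genes, with TMM scaling and a quasi-likelihood fit to all 24 libraries (6 group means, 18 residual degrees of freedom, common dispersion 0.113). P-values are two-sided, adjusted by Benjamini-Hochberg over all tested genes, with a threshold of 0.05. CPM and RPKM in the text use TMM library sizes and are given as mean ± SD, and log2 fold changes with SE. The fit was tested on simulated data. No 2 libraries of a group agreed within sampling noise. At this depth the spread between libraries limits precision.

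The members and companion lists were chosen with earlier results of these data known. All members are named, Nr3c2 as the targeted gene, a set of fixed companions, and up to 3 called genes with the largest change per list and comparison between conditions. Alternatives were DESeq2 size factors, no filter, DESeq2 1.42.0, replicate blocks, leaving out libraries with lymph node or muscle transcripts (mean log2 CPM of the markers above 3 or 4), and leaving out each library. Deviations from the group mean in same-numbered libraries of the 2 genotypes correlated at 0.20 to 0.72 on the high-fat diet. On chow and under corticosterone these correlations ran from -0.28 to 0.11. Libraries 1 and 4 of both high-fat diet groups held lymph node transcripts, so pairing cannot be told apart from this shared content. Between conditions, 8 of 20 same-numbered pairs correlated above 0.1 (range -0.37 to 0.59). Calls changed by the block are listed with the other alternatives.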

Additional observations from a re-analysis of the deposited data

Results flagged for a closer look

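Each of the 60 sets of 4 libraries (10 genes in 6 groups) was checked for a library set apart from the other three by Dixon's criterion, which chance alone meets in about 1 of 20 sets, and 2 sets met it. Loxl1 was at 175 CPM in high-fat diet FMRKO library 3, against 148 to 151 CPM in the other three. P4ha2 was at 30.7 CPM in corticosterone FMRKO library 2, against 35.1 to 35.4 CPM in the other three. In that library Lox was the highest of its group (878 CPM) and Loxl2 (13.7 CPM) the lowest.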

How the results depend on the processing

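Of 1144 log2 fold changes recomputed under the alternatives (72 results, with genotype comparisons for Lox and Plod2), 986 kept their direction and their side of the threshold, 84 lost a call, 27 gained one and 47 changed sign. Leaving out the lymph node and muscle libraries together was chosen after seeing the data. With each library left out in turn, members called ranged from 7 to 9 (corticosterone against chow, controls; 8 with all libraries), 4 to 8 (high-fat diet against chow, controls; 7), 1 to 6 (corticosterone against high-fat diet, controls; 4), 2 to 4 (the same, FMRKO; 4) and 0 to 1 (FMRKO averaged; 0). High-fat diet against chow in controls gave 3 members without the lymph node libraries, 2 without those and the muscle libraries, and 3 with the replicate block, and in FMRKO mice 1 without both sets. Corticosterone against high-fat diet gave 2 without the lymph node libraries in each genotype, and 1 in controls and 2 in FMRKO mice without both sets. DESeq2 called 1 member, Plod2, for FMRKO on chow and averaged. The causes of these shifts were not tested. The replicate block ended the calls of Loxl1 and P4ha2 (corticosterone against chow, controls), of Loxl1, Loxl3, Loxl4 and Plod2 (high-fat diet against chow, controls) and of Plod2 (corticosterone against high-fat diet, both genotypes), and added Loxl2 in the last comparison in controls. It changed no other call of these 72.

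Each of the 47 sign changes concerned a difference that was not called. Without the lymph node libraries, log2 values were -0.15 (Loxl1, high-fat diet against chow, FMRKO), -0.10 and -0.09 (Loxl1 and Loxl4, corticosterone against high-fat diet, controls), -0.07 (Loxl4, corticosterone against chow, FMRKO), -0.06 (Tgm2, corticosterone against high-fat diet, FMRKO) and -0.08 (Plod2, interaction with the diet). Without both sets, the values for Loxl1 were -0.31 and -0.28, for Tgm2 -0.07, for Plod2 -0.03, and for P4ha2 (high-fat diet against chow, FMRKO) -0.11. Loxl3 in that comparison was -0.00 with the replicate block and -0.01 without the muscle libraries. Tgm2, corticosterone against high-fat diet in controls, was 0.01 with DESeq2 or its size factors, 0.06 with no filter, 0.00 with the replicate block and 0.09 without the muscle libraries. With single libraries left out, ranges that crossed 0 were, for Lox, -0.28 to 0.02 (FMRKO under corticosterone), -0.13 to 0.25 (interaction with corticosterone) and -0.32 to 0.06 (with the diet). For high-fat diet against chow in FMRKO mice they were -0.04 to 0.30 (Loxl1), -0.11 to 0.25 (Loxl2), -0.07 to 0.10 (Loxl3), -0.26 to 0.02 (Loxl4) and -0.00 to 0.27 (P4ha2), and in controls -0.00 to 0.16 (Plod1). The others were -0.01 to 0.25 (Loxl4, corticosterone against chow, FMRKO), -0.01 to 0.29 (Loxl4, corticosterone against high-fat diet, controls), -0.05 to 0.12 and -0.01 to 0.13 (Tgm2, the same, controls and FMRKO). The least abundant members had 98 counts (Loxl4) and 118 counts (Plod2) in their lowest library.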
